A study of Mus musculus with 32 samples.

Results

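The 13 subcutaneous tumors grown from the parental MC38 line were ranked by their level of Ptprc, which encodes CD45, the surface phosphatase carried by nearly all leukocytes. They are 13 of 32 RNA libraries. MC38 is a mouse colon adenocarcinoma cell line. The parental cells were implanted under the skin of C57BL6/J mice that received no treatment, and poly(A) RNA of the tumor tissue was sequenced. The groups set beside them were 12 untreated subcutaneous tumors of MC38-resistant, a form of the line resistant to anti-PD-1 antibody, and 2 libraries of parental cells in culture. The 5 libraries of cultured MC38-resistant cells were used only for a background level. The mice's age and sex and the day of collection are not given in the sources used here, and no label gives a tumor's size. For every gene with at least 1 TPM (a transcript's share of the library corrected for its length, scaled to the same total in each library) in all 13 parental tumors, Spearman's rho with Ptprc was computed. This kept 10622 of 22329 genes, or 10621 beside Ptprc. The ranking used these values, so rho in the parental tumors is a description and carries no test.

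A transplanted tumor is a mixture of cancer cells and host cells. Leukocytes enter it through vessels, macrophages and monocytes usually make up a large part of them, and T cells and NK cells secrete interferon gamma, which raises antigen presentation genes and T cell-attracting chemokines in cancer cells and host cells alike. Macrophages and dendritic cells carry MHC class II molecules, which present peptides to CD4 T cells, while class I molecules are carried by nearly all cells and present peptides to CD8 T cells. In RNA from whole tissue, fewer cells of a type and less RNA of that type per cell cannot be told apart, and a larger share of one cell type lowers the share of all others.

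Ptprc ranged from 14.5 to 53.7 TPM over the 13 tumors, with a median of 34.6 TPM and a mean of 35.6 ± 10.9 (SD, n = 13). The highest tumor had 3.70 times the level of the lowest. In culture, Ptprc was listed at 0 in 1 parental library and at 0.0441 TPM in the other, and it reached at most 0.147 TPM in the resistant cultures. A score over 23 other pan-leukocyte genes, the mean of log2(TPM + 1), ran from 3.83 to 5.24 and had a rho of 0.82 with Ptprc. Each tumor gave 1 library, so neighbours in the order, such as the tumors at 30.9 and 31.5 TPM, have no error of their own that would separate them.

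The lowest 4 places were held by the 4 libraries in which Tubb5, the main beta tubulin of dividing cells, was under 50% of the median of the 13. These were replicates 3, 2, 7 and 8 in rising order of Ptprc (14.5, 22.4, 25.9 and 30.9 TPM), with Tubb5 at 454, 15.7, 98.8 and 98.4 TPM. In the other 9 tumors Ptprc lay between 31.5 and 53.7 TPM and Tubb5 between 671 and 1271 TPM. The 2 sets of tumors did not overlap in either gene. A library's GC index, the median log2 level of genes with a transcript GC content over 55% minus that of genes under 42%, each gene set against its mean over the 25 tumors, was 0.57 to 0.83 in the 4 tumors and -0.27 to 0.27 in the other 9. The mitochondrially encoded share of TPM was 4.65 to 5.35% in the 4 and 5.60 to 10.6% in the 9. The first principal component of the 13 tumors, with 48.9% of the variance, also set the 4 apart, and had a rho of 0.88 with the GC index. Over all 13 tumors, a low rank by Ptprc and this difference in library composition therefore cannot be told apart, and each value below is given for the 13 tumors and for the other 9, among which the highest Ptprc was 1.71 times the lowest.

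**Figure D1:**
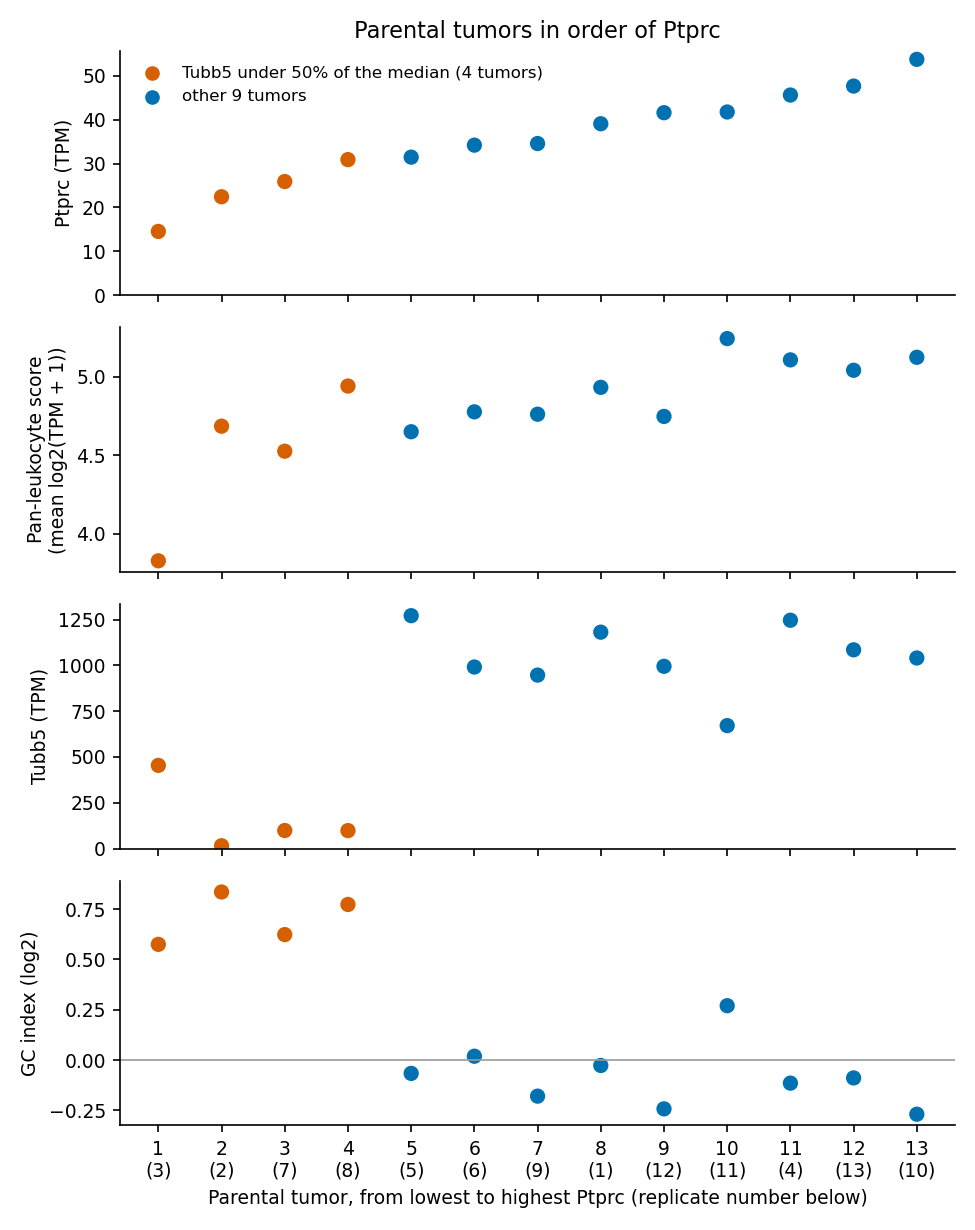
Ptprc, the pan-leukocyte score, Tubb5 and the GC index of each parental tumor (vertical axes), in order of Ptprc (horizontal axis, replicate number in parentheses), with 1 point per library and the 4 tumors with low Tubb5 in orange. The orange tumors hold the lowest 4 places by Ptprc, their GC index is at least 0.57, and in the other 9 tumors Tubb5 stays above 670 TPM while Ptprc runs from 31.5 to 53.7 TPM.

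Tubb5 itself was checked against the GC index, which does not use Ptprc. Over the 13 tumors Pearson's r was -0.94 (two-sided permutation p = 6e-05) and Spearman's rho was -0.71 (permutation p = 0.0079). Without the 2 tumors farthest from the median GC index, r was -0.87 (permutation p = 0.0018) and rho was -0.53 (permutation p = 0.10). Within the 9 tumors with higher Tubb5 the relation did not pass, with r = -0.49 (permutation p = 0.186) and rho = -0.13 (permutation p = 0.744), so it rested on the split between the 4 tumors and the 9. With Ptprc, Tubb5 had a rho of 0.63 over 13 tumors and -0.017 over 9, so within the 9 its level gave no order like that of Ptprc. The GC index had a rho with Ptprc of -0.77 over 13 and -0.42 over 9, and the mitochondrially encoded share 0.73 and 0.22. The pan-leukocyte score differed from these in that its rho was nearly as high over the 9 tumors (0.77) as over the 13.

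Over 13 tumors, 813 genes (7.65%) had a rho of at least 0.7 with Ptprc and 556 (5.23%) had one of at most -0.7. Over the 9 tumors with higher Tubb5 these were 395 genes (3.72%) and 157 (1.48%). The mark of 0.7 is the same in both settings, although rho scatters more over 9 tumors than over 13. Genes past the mark in both settings numbered 128 (1.21%) on the positive side, 15.7% of the 813 and 32.4% of the 395, and 48 (0.452%) on the negative side, 8.63% of the 556 and 30.6% of the 157. Of the 813, 463 (56.9%) were lower in each of the 4 low-Tubb5 tumors than in any of the 9, against 10.4% of all genes. Of the 556, 371 (66.7%) were higher in each of the 4 than in any of the 9, against 8.24% of all genes. The choice of genes by rho raises both shares, since the 4 tumors hold the lowest places by Ptprc. With the GC index held constant in a partial correlation, 232 genes stood at 0.7 or more and 45 at -0.7 or less, and with Tubb5 held constant 344 and 160. The genes at the edge of the mark were Zbtb26 at 0.7033 just inside and Zfp869 at 0.6978 just outside, and on the other side BC029722 at -0.7033 and Zfp746 at -0.6978.

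The base composition of the transcripts followed the same split. The median GC content was 46.1% for the 813 genes, 55.01% for the 556 and 50.6% for all genes. Genes up to 40% GC had a median rho of 0.51 with Ptprc over 13 tumors and genes over 60% GC one of -0.42, with the bins between in order. Over the 9 tumors the same bins had medians of 0.18 and 0.017. The genes of lowest GC content therefore kept a weak positive median among the 9, while the negative median of the GC-rich genes was not there.

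**Figure D2:**
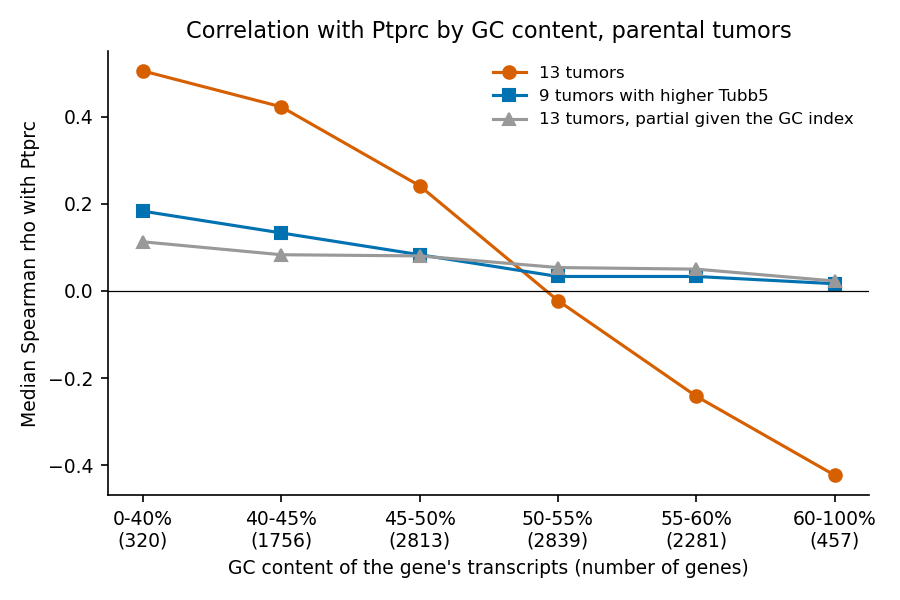
Median Spearman rho with Ptprc (vertical axis) for genes binned by transcript GC content (horizontal axis, number of genes in parentheses), over 13 parental tumors (orange), over the 9 with higher Tubb5 (blue) and over 13 with the GC index held constant (grey). The orange line falls from 0.51 to -0.42, while the blue line runs from 0.18 to 0.017.

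The gene closest to Ptprc over the 13 tumors was Fli1, an ETS transcription factor of blood and endothelial cells. It stood between 1.20 and 5.40 TPM in the 4 low-Tubb5 tumors and between 10.97 and 18.6 TPM in the 9 (rho 0.96 over 13 and 0.98 over 9), so the 4 were all lower, and the order within the 9 was almost that of Ptprc. Ctss, the lysosomal protease cathepsin S that trims the invariant chain of MHC class II in antigen-presenting cells, ran from 89.6 to 264 TPM in the 4 and from 323 to 509 TPM in the 9 (rho 0.96 and 0.87). H2-DMa, which loads peptides onto class II, ran from 7.72 to 17.6 TPM in the 4 and from 19.2 to 44.6 TPM in the 9 (rho 0.94 and 0.83). Both genes of class II loading also had a high rho within the 9. They were picked by rho over the 13 tumors, which include the 9, so this is no separate check. Clec2d, a C-type lectin recognized by an inhibitory NK cell receptor, ran from 33.2 to 51.4 TPM in the 4 and from 65.8 to 128 TPM in the 9 (rho 0.92 and 0.82). Adcy7, an adenylyl cyclase common in leukocytes, ran from 7.55 to 14.03 and from 16.9 to 26.8 TPM (rho 0.93 and 0.83), and Ifnar1, a subunit of the type I interferon receptor, from 8.65 to 12.2 and from 15.1 to 24.2 TPM (rho 0.92 and 0.78). The other 4 of the 10 highest were the membrane protein gene Itm2b (rho 0.95 and 0.98), the co-chaperone gene Dnajc10 (0.93 and 0.90), the small GTPase gene Rap1b (0.93 and 0.85) and the lymphocyte kinase gene Stk17b (0.92 and 0.88). In 9 of these 10 genes the 4 tumors lay wholly below the 9, against 10.4% of all genes. Because the 4 hold the lowest places by Ptprc, picking genes by a high rho over 13 favours this split.

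**Figure D3:**
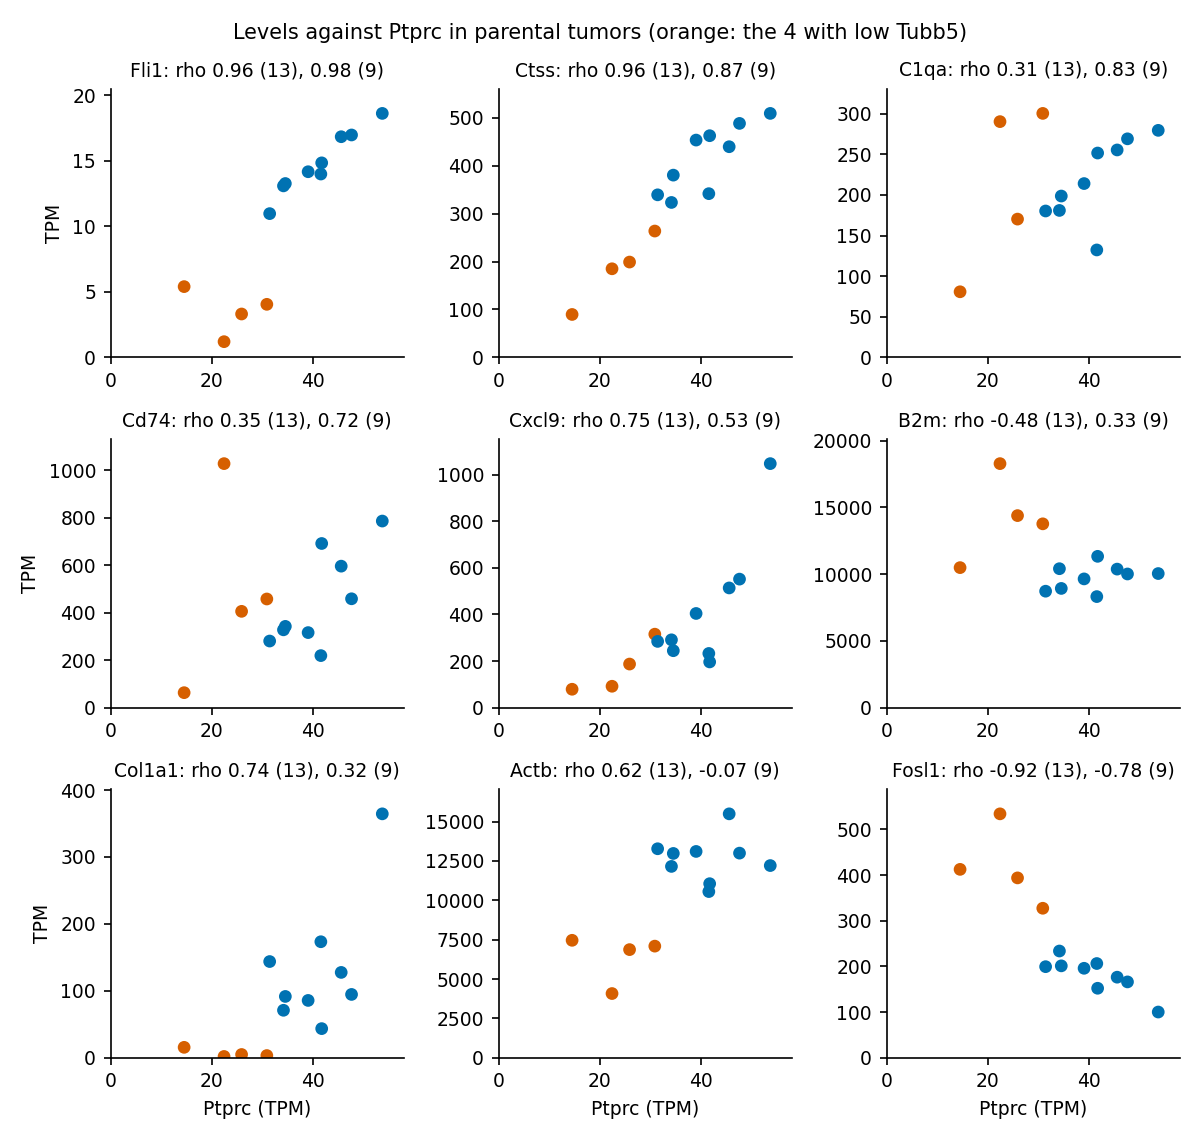
Level in TPM (vertical axes) against Ptprc in TPM (horizontal axes) for 9 genes in the 13 parental tumors, 1 point per tumor, with the 4 low-Tubb5 tumors in orange and both rho values in each title. Ctss is ordered like Ptprc in both sets of tumors and Fli1 among the blue points, and C1qa and Cd74 follow Ptprc among the blue points while orange points lie high at low Ptprc, and Actb differs between the sets but not along Ptprc within the 9.

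The RefSeq promoter table (build GRCm38.p6, 250 bases before to 50 after each start) held 8303 of the 10621 genes. It was searched for the interferon-stimulated response element core GAAANNGAAA on both strands. The response element was in 5.70% of the matched promoters of the 813 genes, 6.56% of those of the 395, 7.29% of those of the 128, 1.11% of those of the 556, 3.70% of those of the 157 and 3.48% of those of all genes in the filter. For comparison, 10 of the 13 matched promoters of the interferon gamma response list (76.9%) held the response element. The promoters of Ctss and Clec2d are shown because they are among the 10 genes closest to Ptprc and hold the response element, in capitals; they lie on the plus strand at chr3:95526536-95526835 and chr6:129180365-129180664. A match is a run of letters and not a shown binding site.
Ctss: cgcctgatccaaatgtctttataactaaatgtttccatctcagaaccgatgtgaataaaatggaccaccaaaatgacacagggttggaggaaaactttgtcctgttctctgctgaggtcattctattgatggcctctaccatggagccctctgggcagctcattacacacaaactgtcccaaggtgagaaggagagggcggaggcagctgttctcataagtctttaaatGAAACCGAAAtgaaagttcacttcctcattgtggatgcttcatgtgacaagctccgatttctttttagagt
Clec2d: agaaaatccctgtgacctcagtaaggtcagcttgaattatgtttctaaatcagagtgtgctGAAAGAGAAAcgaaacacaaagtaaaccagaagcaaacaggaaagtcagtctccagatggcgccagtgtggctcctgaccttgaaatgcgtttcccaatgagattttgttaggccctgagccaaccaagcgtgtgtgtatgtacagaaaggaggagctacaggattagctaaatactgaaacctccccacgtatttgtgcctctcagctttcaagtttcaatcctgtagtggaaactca

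Leukocyte lists were mostly positive with Ptprc, and more uniformly so among the 9 tumors. Of 23 pan-leukocyte genes, 21 passed the filter, with a median rho of 0.54 over 13 tumors and 0.43 over 9, against 0.088 and 0.083 for all genes. Over 13 tumors 16 of the 21 were positive and over 9 tumors all 21, and the number at 0.7 or more was 7 and 5. The members with the largest rho were the lymphoid transcription factor gene Ikzf1 (0.80 and 0.65), Dock2, which drives leukocyte migration (0.77 and 0.33), the tetraspanin gene Cd53 (0.76 and 0.37) and the GTPase gene Rac2 (0.75 and 0.65). The summed level of all 23 listed genes was 646 to 1552 TPM in the 4 tumors and 1110 to 1892 TPM in the 9. These ranges overlapped, unlike those of Ptprc itself.

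Among myeloid cells, 15 of 16 macrophage genes passed the filter, with a median rho of 0.44 over 13 and 0.42 over 9, and 14 of the 15 were positive over 9. The complement genes C1qa and C1qb, made by tissue macrophages, differed in the 4 tumors. C1qb ran from 29.5 to 132 TPM in the 4 and from 159 to 307 TPM in the 9 (rho 0.89 and 0.68). C1qa ran from 80.8 to 300 TPM in the 4 and from 132 to 279 TPM in the 9, so the sets overlapped, and its rho was 0.31 over 13 but 0.83 over 9. The 2 genes encode chains of the same protein complex, yet the 4 tumors overlapped the 9 for C1qa and not for C1qb. Adgre1, which encodes the macrophage marker F4/80, had a rho of 0.73 and 0.52, and Csf1r, the receptor for macrophage growth factor, one of 0.66 and 0.62. The Fc receptor gene Fcgr1 (0.79 and 0.70) and C1qc (0.79 and 0.35) completed the leading members. Of 8 monocyte genes, 6 passed the filter (median 0.68 and 0.59), led by Ms4a4c (0.86 and 0.80) and with Ly6c2 at 0.75 and 0.57 and Ccr2, the receptor that brings monocytes out of the marrow, at 0.74 and 0.62. Cd14 went the other way, at -0.84 and -0.58, and it was also present in culture at a mean of 12.4 TPM. Of 12 neutrophil genes 5 passed, all positive in both settings (median 0.47 in each), led by Csf3r (0.77 and 0.68). Outside the filter, Ly6g and Retnlg had a median of 0 TPM, Cxcr2 of 0.27 and Mmp8 of 0.30 TPM. G0s2, Trem1 and S100a9, also outside it, had medians of 1.01, 1.35 and 2.57 TPM. Of those that passed, S100a8, Hdc, Il1r2 and Mmp9 had means of 1.14, 1.32, 0.69 and 0.96 TPM in culture, and Csf3r was at 0. S100a8 ran from 1.01 to 17.0 TPM (0.17 and 0.47). The dendritic cell genes Itgax (0.43 and -0.067) and Zbtb46 (0.55 and 0.70) were the 2 of 10 that passed.

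Lymphocyte genes were low in level, and most did not reach 1 TPM in all tumors. Of 12 T cell genes 3 passed. Cd3e, a chain of the T cell receptor complex, ran from 1.23 to 3.92 TPM in the 4 tumors and from 5.18 to 19.2 TPM in the 9 (rho 0.88 and 0.67), so the sets did not overlap. Cd8a, the coreceptor of cytotoxic T cells, ran from 0.147 to 4.08 TPM with a median of 2.04 and was outside the filter, as was Ifng, which ran from 0 to 2.97 TPM with a median of 1.07. All 3 NK cell genes that passed, of 7, were positive, with Klrd1 at 0.82 and 0.48, Klrk1 at 0.77 and 0.62 and Ncr1, the NK activating receptor NKp46, at 0.37 and 0.32. Of 13 cytotoxic effector genes 7 passed, with a median rho of 0.27 over 13 and 0.53 over 9. Gzmb, a granzyme, ran from 25.3 to 70.9 TPM in the 4 and from 13.5 to 64.5 TPM in the 9 (0.19 and 0.63). Perforin, Prf1, ran from 12.2 to 25.5 and from 5.39 to 15.6 TPM (-0.41 and -0.083), so the tumors lowest in Ptprc were not the lowest in either killing gene. The 3 B and plasma cell genes that passed, of 9, had medians of -0.42 and -0.30, led by Cd79a (-0.49 and -0.30), while Pax5 was already at a mean of 18.2 TPM in culture. The checkpoint and regulatory T cell list (3 of 11 passed) had medians of -0.0055 and 0.45, and Kit was the 1 of 7 mast cell genes that passed (-0.20 and 0.58).

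Interferon response and antigen presentation genes were largely positive. Of 21 interferon gamma response genes 20 passed, with a median of 0.57 over 13 and 0.51 over 9, and 17 of 20 positive over 9. The guanylate-binding protein genes Gbp6 (0.88 and 0.75), Gbp4 (0.86 and 0.68), Gbp7 (0.85 and 0.55) and Gbp5 (0.81 and 0.45) led it; they have close copies in the genome, and how reads were shared between copies is not given in the sources used here. Cxcl9, the interferon gamma-induced chemokine that draws T cells, ran from 78.9 to 315 TPM in the 4 tumors and from 196 to 1048 TPM in the 9 (0.75 and 0.53). Its highest value was in the tumor with the highest Ptprc. Irf1 ran from 140 to 332 TPM in the 4 and from 112 to 226 TPM in the 9 (-0.31 and 0.13). Cd274, which encodes PD-L1, the ligand of PD-1, ran from 2.25 to 7.51 TPM in the 4 and from 13.8 to 30.9 TPM in the 9 (0.74 and 0.23), so most of its relation lay between the sets. All 26 type I interferon response genes passed, with medians of 0.39 and 0.40, led by Oasl2 (0.84 and 0.55), Ifi44 (0.79 and 0.38), Dhx58 (0.77 and 0.60) and Ifit2 (0.77 and 0.70).

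MHC class II was the list with the highest median over the 9 tumors, at 0.74 (0.54 over 13), with 6 of 9 genes in the filter, all 6 positive over the 9 and 4 of them at 0.7 or more. H2-Aa, the class II alpha chain, ran from 10.2 to 72.7 TPM in the 4 tumors and from 40.9 to 164 TPM in the 9 (0.65 and 0.78). H2-Ab1, its partner beta chain, ran from 11.1 to 17.8 and from 43.6 to 175 TPM (0.80 and 0.48). Cd74, the invariant chain, ran from 62.9 to 1028 TPM in the 4 and from 219 to 786 TPM in the 9 (0.35 and 0.72), and its highest value was in replicate 2, the tumor with the lowest Tubb5. The 3 genes belong to 1 complex, yet the 4 low-Tubb5 tumors overlapped the 9 for H2-Aa and Cd74 and not for H2-Ab1. All 16 class I genes passed, with medians of 0.39 and 0.28. Over 13 tumors 11 were positive and over 9 tumors 14. The members with the largest rho were the chaperone gene Pdia3 (0.79 and 0.60), the peptide transporter gene Tap2 (0.75 and 0.68), the immunoproteasome gene Psmb8 (0.71 and 0.55) and the chaperone gene Canx (0.66 and 0.067). Tap1, the partner of Tap2, named here after its values were seen, had a rho of -0.42 and 0.25. The class I light chain B2m ran from 10482 to 18270 TPM in the 4 tumors and from 8313 to 11328 TPM in the 9 (-0.48 and 0.33), and the heavy chain H2-K1 from 1255 to 1726 and from 986 to 1264 TPM (-0.46 and 0.30). For both genes the sign of rho changed when the 4 tumors were left out.

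**Figure D4:**
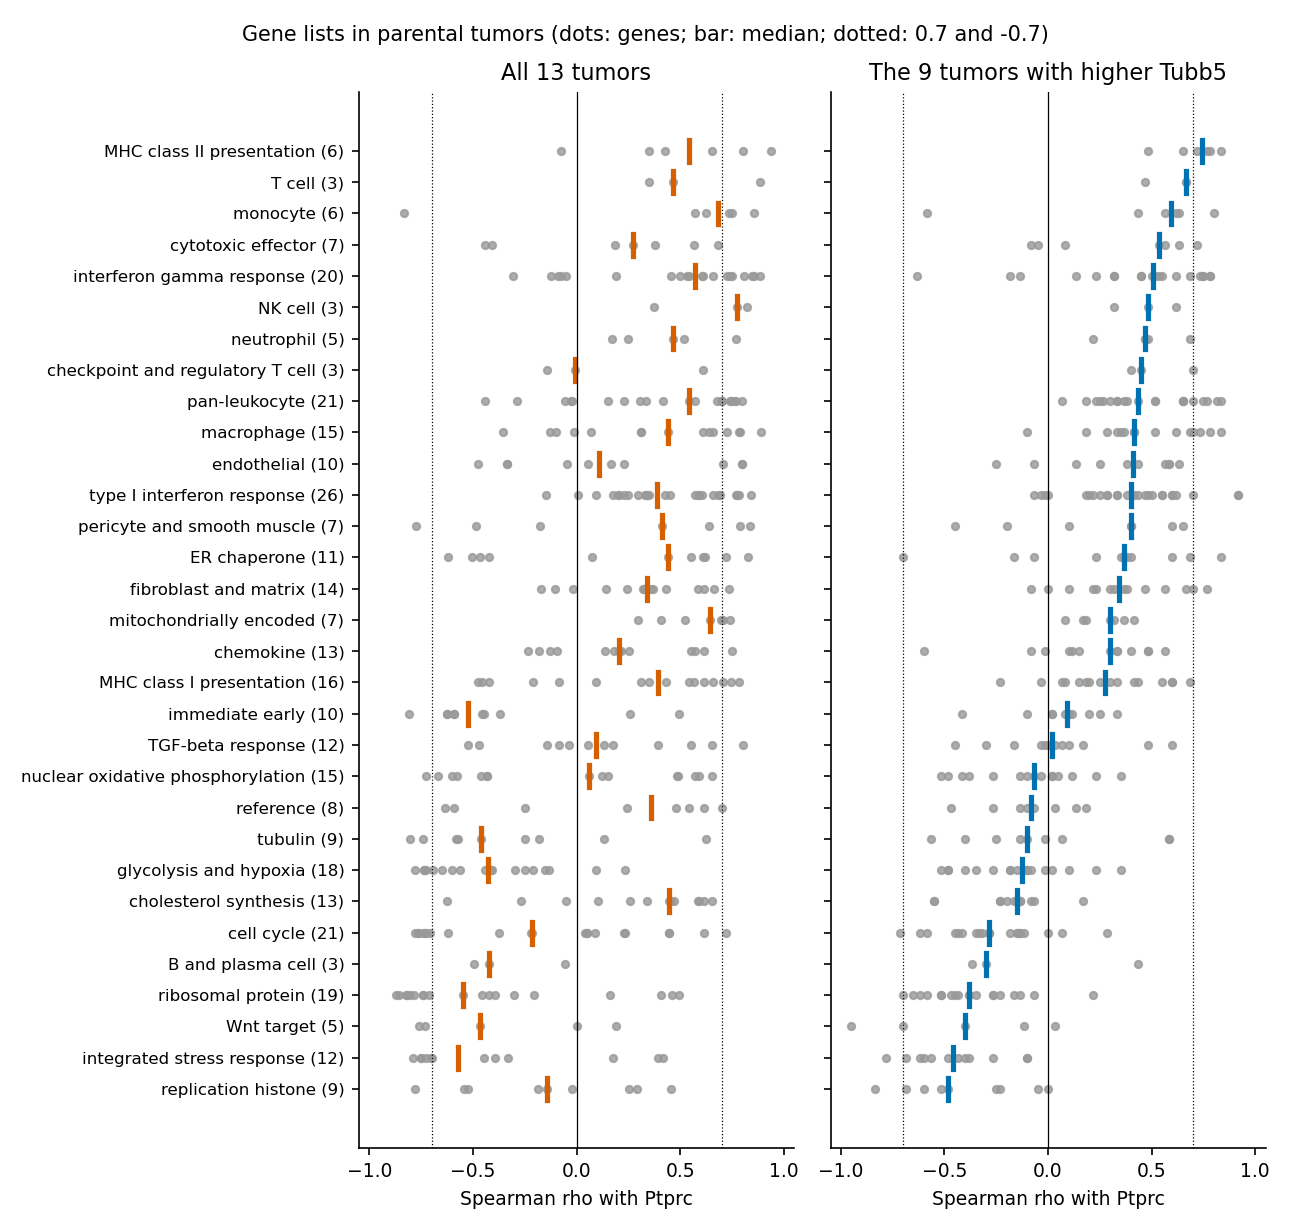
Spearman rho with Ptprc (horizontal axes) of the genes of each list with at least 3 members in the filter (vertical axis, number in parentheses), over 13 parental tumors (left) and over the 9 with higher Tubb5 (right), with 1 dot per gene and a bar at the median. Over the 9 tumors MHC class II has the highest median (0.74), and the medians of the cholesterol synthesis and immediate early lists have the other sign than over 13.

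Stromal genes gave a mixed picture. Of 15 fibroblast and matrix genes 14 passed, with a median of 0.34 in both settings. Col1a1, the main fibrillar collagen, ran from 2.06 to 15.7 TPM in the 4 tumors and from 43.6 to 364 TPM in the 9 (0.74 and 0.32), so the sets did not overlap. Col6a3 (0.66 and 0.57), Col5a1 (0.62 and 0.10) and Thy1 (0.59 and 0.70) were the next members. Col1a2, the partner chain of Col1a1, named here after its values were seen, had a rho of 0.14 and 0. With the GC index held constant, Col1a1 had a rho of 0.026 over 13. Of the 14 genes, 11 were positive over 13 and 12 over 9. Among 10 pericyte and smooth muscle genes 7 passed (medians 0.41 and 0.40), with Rgs5 at 0.84 and 0.65 and Acta2, smooth muscle actin, at -0.77 and -0.45. Of 12 endothelial genes 10 passed (0.11 and 0.41), with 6 positive over 13 and 8 over 9. The growth factor receptors Flt1 (0.80 and 0.38) and Kdr (0.80 and 0.58) were ahead, and Pecam1, CD31, was at 0.23 and 0.58. Vwf went the other way (-0.48 and -0.25). No keratinocyte, erythroid or epithelial gene passed the filter, and the summed level was at most 28.3, 12.8 and 8.14 TPM; Krt8 reached 0.621 TPM, Krt18 1.46 TPM and Epcam 0.680 TPM at the most. The defining epithelial markers were thus at or near 0 in tumors labelled as a colon adenocarcinoma line, and they were at most 0.205 TPM on average in its culture for these 3 genes. Skeletal muscle and adipocyte genes were sporadic (2 of 10 and 2 of 8 passed), summing to 6.72 to 76.2 TPM and 20.5 to 217 TPM.

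Among the genes with a negative rho, Fosl1, the AP-1 transcription factor Fra-1, ran from 328 to 534 TPM in the 4 tumors and from 100.3 to 234 TPM in the 9 (-0.92 and -0.78), with its lowest value in the tumor highest in Ptprc. Pcsk4, a proprotein convertase, ran from 15.6 to 26.7 and from 8.33 to 13.3 TPM (-0.93 and -0.83). E2f4, a transcription factor that represses cell cycle genes in resting cells, ran from 325 to 548 and from 124 to 250 TPM (-0.88 and -0.70). Others of the 10 lowest were the lysyl oxidase gene Loxl4, the zinc finger gene Zfp970, the mitochondrial ribosomal gene Mrpl49, the glyoxylate reductase gene Grhpr, the chromatin factor gene Mta1 and Eefsec, the elongation factor for selenocysteine, with rho from -0.90 to -0.88 over 13 and from -0.78 to -0.70 over 9. In 9 of the 10 lowest genes the 4 tumors lay wholly above the 9, against 8.24% of all genes. Picking genes by a low rho over 13 favours this split too.

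Ribosomal protein genes (19 of 20 listed) had a median rho of -0.55 over 13 tumors and -0.38 over 9, with 9 and 1 at -0.7 or less. Of the 19, 4 were positive over 13 and 1 over 9. Rpl10a (-0.87 and -0.62) and Rplp0 (-0.86 and -0.58) led them. The integrated stress response, the program that the transcription factor ATF4 runs under amino acid shortage and other stress, had medians of -0.57 and -0.46 over its 12 genes. Of these, 3 were positive over the 13 tumors and none over the 9. Atf4 itself ran from 779 to 1222 TPM in the 4 and from 270.4 to 655 TPM in the 9 (-0.79 and -0.48), and the mitochondrial folate enzyme gene Mthfd2 stood at -0.75 and -0.78. Myc, counted here as a Wnt target, ran from 256 to 401 TPM in the 4 and from 133 to 315 TPM in the 9. Its rho was -0.73 over 13 and -0.95 over 9, so its order within the 9 was nearly the reverse of that of Ptprc, while the sets overlapped.

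Cell cycle genes (21) had medians of -0.21 and -0.28, with 10 and 2 positive, 7 and 1 at -0.7 or less, and 1 and 0 at 0.7 or more. Cdc20 (-0.78 and -0.42), Mcm2 (-0.76 and -0.45), E2f1 (-0.76 and -0.28) and Top2a (-0.74 and -0.32) led, while the proliferation marker Mki67 ran from 113 to 181 TPM without a clear order (-0.22 and -0.13). Glycolysis and hypoxia genes (18) had medians of -0.43 and -0.12, led by Pkm (-0.78 and -0.35). Immediate early genes (10) had medians of -0.52 and 0.092, and cholesterol synthesis genes (13) of 0.45 and -0.15, so both lists changed sign. Tubulin genes (9) had medians of -0.46 and -0.10. Tuba1b (-0.80 and -0.57) and Tubb6 (-0.74 and -0.40) had a negative rho, opposite to Tubb5, with overlapping sets (127 to 375 against 79.4 to 136 TPM for Tuba1b). Of the reference genes, Actb ran from 4082 to 7463 TPM in the 4 and from 10557 to 15492 TPM in the 9 (0.62 and -0.067) and thus also separated the sets.

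Parental tumors were set against the 2 libraries of the same cells in culture, which hold no host cells. Limma on log2(TPM + 1) found 2310 of 14348 genes higher (16.1%) and 859 lower (5.99%) in the 13 tumors at an adjusted p under 0.05. All 23 pan-leukocyte genes, all 16 macrophage genes, all 26 type I interferon response genes, 20 of 21 interferon gamma response genes, 8 of 9 class II genes, 11 of 12 endothelial genes and 12 of 15 fibroblast genes were higher. Of 21 cell cycle genes 4 were lower and none higher. The order of the tumors plays no part in this test. C1qa, at 80.8 to 300 TPM in tumors, was listed at 0 and 0.122 TPM in the 2 cultures, and Ctss and Clec2d passed with adjusted p of 3.78e-10 and 3.07e-06. B2m was 2.59 ± 0.25 (SE, log2) higher in tumors (limma adjusted p = 4.52e-07) and Myc 1.35 ± 0.28 higher (0.00146). Of the 813 genes with a rho of at least 0.7 over 13 tumors, 159 (19.6%) were higher and 39 (4.80%) lower in tumors, against 17.4% and 6.88% of all genes in the filter. The median difference (log2) was -0.099 for the 813 and 0.071 for all genes. Of the 395 genes over the 9 tumors, 151 (38.2%) were higher and 22 (5.57%) lower. Of the 128 genes past the mark in both settings, 44 (34.4%) were higher and 6 (4.69%) lower. Without the 4 low-Tubb5 tumors limma found 2924 genes higher (22%) and 1419 lower (10.7%) of 13307. In that fit 261 of the 813 genes (32.1%) were higher and 83 (10.2%) lower, against 22.3% and 11.9% of all genes in the filter. The median difference (log2) was then 0.16 for the 813 and 0.080 for all genes. Tubb5 was -1.76 ± 1.21 (SE, log2) against culture with all tumors (adjusted p = 0.310) and -0.69 ± 0.19 without the 4 (adjusted p = 0.0125). The labels do not say that the 2 cultures were separate ones, so the spread between them may be no more than technical. The fit took 1 spread per gene for tumors and cultures together, and it came mostly from the 13 tumors. The spread between cultures was thus barely measured and was taken to equal that of the tumors.

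The same relation was tested in the 12 resistant tumors, which the ranking did not use. There Ptprc ran from 19.7 to 50.3 TPM with a median of 22.8, and limma gave each gene's slope, the change in log2(TPM + 1) per unit of log2(TPM + 1) of Ptprc. Of 10808 genes, 6 had a positive slope (0.0555%) and 5 a negative one (0.0463%) at an adjusted p under 0.05, and at an unadjusted p under 0.05 there were 1215 and 1385. The class II chain H2-Ab1 ran from 10.8 to 99.4 TPM, and its slope was 2.22 ± 0.36 (SE, adjusted p = 0.0271). In the parental tumors its slope was 2.17 over 13 and 2.12 over 9. The other positive slopes named were those of Ikzf2, the T cell transcription factor Helios (1.68 ± 0.28), the tetraspanin gene Cd53 (1.62 ± 0.28), the collagen gene Col12a1 (1.46 ± 0.23) and the matrix proteoglycan gene Aspn (1.29 ± 0.18), with adjusted p from 0.0271 to 0.0359. The negative ones were Zbtb7c (-1.43), Fbxl15 (-1.26), Wdtc1 (-1.04), the mTOR inhibitor gene Ddit4 (-0.86) and the linker histone gene H1f0 (-0.85), with adjusted p from 0.0271 to 0.0410. When the GC index was added as a covariate, 1 gene was positive (0.00925%) and none negative, and none of these 10 passed (adjusted p from 0.124 to 0.40). The slopes themselves kept their sign, with 1.99 ± 0.47 for H2-Ab1 and 1.29 for Aspn, 1.07 to 1.28 for the other 3 positive genes and -0.91 to -0.65 for the negative ones. Over 21 alternatives H2-Ab1 passed in 11, with adjusted p from 0.0103 to 0.9996. With the 2 resistant tumors of low Tubb5 left out, none passed, while without resistant replicate 8 there were 276 positive and 468 negative genes and without replicate 6 there were 277 and 407.

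None of the 10 parental genes closest to Ptprc passed in the resistant tumors. Their slopes were positive for 9 of 10, with a median of 0.34, and the smallest adjusted p was 0.0763 (Adcy7, 0.69 ± 0.19). Ctss had 0.74 ± 0.20 (0.0771) and Clec2d 0.71 ± 0.22 (0.0881), while Fli1, the closest gene in the parental tumors, had 0.35 ± 0.22 (0.342) and ran from 6.11 to 14.4 TPM. The 10 lowest genes had 10 negative slopes, with a median of -0.25 and a smallest adjusted p of 0.162. With the GC index as a covariate, 9 of the first 10 slopes were positive (median 0.21), and 5 of the second 10 (median 0.051).

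As sets, 693 of the 804 tested genes with a parental rho of at least 0.7 over 13 tumors had a positive slope in the resistant tumors (86.2%, median 0.32), and 9.49% of those at -0.7 or less (median -0.37), against 49.8% of all genes in the filter (median -0.0018). With the GC index as a covariate these were 57.96% (median 0.059), 42.7% (median -0.039) and 52.7% (median 0.019). For the genes at 0.7 or more over the 9 tumors, 58.5% were positive without the covariate (median 0.071) and 64.5% with it (median 0.094), and for the 128 genes of both settings 78.6% (median 0.25) and 69.8% (median 0.12). In the resistant tumors too, the GC index had a rho of -0.61 with Ptprc and the mitochondrially encoded share one of 0.81, and their part in the slopes beyond this covariate was not tested. Ptprc had a rho of only 0.23 with the pan-leukocyte score there.

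**Figure D5:**
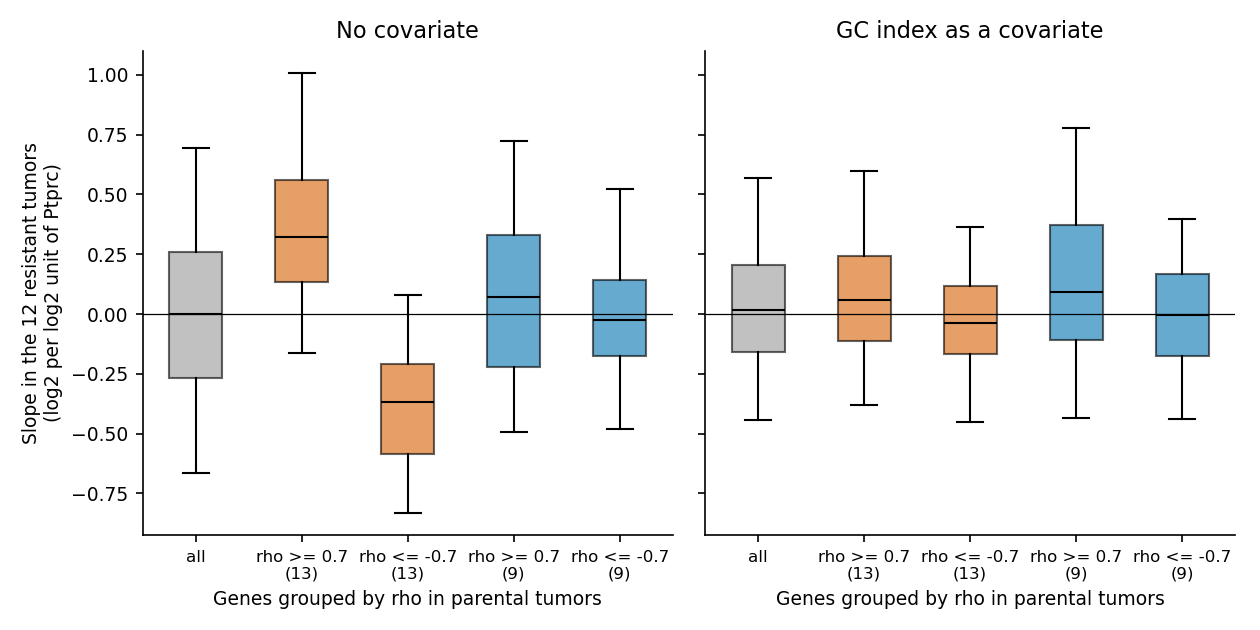
Slope on Ptprc in the 12 resistant tumors (vertical axis, log2 per log2 unit) for genes grouped by their rho in the parental tumors (horizontal axis; 13 or 9 tumors), without (left) and with (right) the GC index as a covariate. Boxes give the quartiles and the median, and whiskers the 5th to 95th percentiles; the medians of the 2 orange groups are 0.32 and -0.37 on the left and 0.059 and -0.039 on the right.

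By list, the slopes in the resistant tumors were positive for all 6 class II genes tested (median 0.84, 1 gene called), 13 of 16 macrophage genes (0.40), 16 of 20 interferon gamma response genes (0.36), 16 of 23 pan-leukocyte genes (0.13, 1 called), 15 of 26 type I interferon response genes (0.078) and 11 of 14 fibroblast genes (0.75). With the GC index as a covariate the medians were 1.51, 0.47, 0.38, 0.32, 0.15 and 0.52. All 7 mitochondrially encoded genes were positive (0.76, and 0.54 with the covariate). Cytotoxic effector genes were positive for 2 of 7 (-0.34), and glycolysis and hypoxia genes for 2 of 17 (-0.36). With the covariate 3 of the 7 were positive (-0.065), and 2 of the 17 (-0.40). The class II list was thus uniformly positive in the resistant tumors and among the 9 parental ones, although only H2-Ab1 passed its test.

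A line by Ptprc term over all 25 tumors set the slopes of the lines side by side in 1 limma fit. Its parental values are those of the ranking, so its counts and differences are a description and nothing is read from them as a test. Of 10363 genes, none had a higher slope in resistant tumors and 2 a lower one (0.0193%) at an adjusted p under 0.05, with 279 and 625 at an unadjusted p under 0.05. Slc15a3, a lysosomal transporter of histidine and small peptides found in myeloid cells, ran from 15.8 to 164 TPM in parental tumors (rho 0.86 over 13 and 0.72 over 9) and from 76.7 to 160 TPM in resistant ones. Its slope was 1.79 in the parental tumors (1.25 over 9) and -0.12 in the resistant tumors. Dhcr7, the enzyme of the last step of cholesterol synthesis, ran from 27.8 to 98.6 TPM (0.65 and 0.17) and from 59.5 to 104 TPM. Its slope was 0.74 in the parental tumors (0.46 over 9) and -0.44 in the resistant tumors. The fit gave no gene in either direction without the 4 low-Tubb5 parental tumors, and the differences were then -1.37 for Slc15a3 and -0.90 for Dhcr7. Without parental replicate 3, the tumor with the lowest Ptprc, 23 genes had a higher and 169 a lower slope in resistant tumors.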

How the data were processed

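The authors deposited 1 table of TPM by mouse gene symbol for 32 libraries; each column sums to 1000000 and every column was mapped. Libraries came from DNase-treated RNA with a KAPA RNA HyperPrep kit, per the labels. STAR and GRCh38, a human build, appear per the submitters' processing notes without a version or a stated use. The quantifier and annotation are not given in the sources used here, so the table gives no coordinates. TPM keeps no read total, so sequencing depth is unknown here and precision rests on the spread between libraries. Groups follow the labels; replicate numbers follow the order of deposition. The 78 pairs of parental tumors had correlations of 0.831 to 0.979 on log2(TPM + 1), so none was a copy of another.

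Each gene's Spearman's rho and partial rho (on ranks) were computed with numpy 2.4.6 and pandas 2.3.3 in Python 3.11.15. Correlations between library measures were computed with scipy 1.17.1. Slopes and tumor against culture were fitted to log2(TPM + 1) by limma 3.58.1 (R 4.3.3; trend on), and two-sided p-values were adjusted by Benjamini-Hochberg over every gene in the fit, with calls at 0.05; fold changes on this scale understate those of low genes. Tumor fits took genes with at least 1 TPM in every tumor fitted, and the culture fit those in at least 2 libraries. Correlations of Tubb5 with the GC index used 100000 permutations. The GC index used GENCODE transcripts, matched for 98.6% of the 10046 genes averaging 5 TPM or more, of which 2515 were over 55% and 756 under 42%. On simulated data, the fits recovered 59%, 34% and 37% of log2 effects of 1 (resistant slope over 10808 genes, slope difference over 10363, tumor against culture over 14348) and 97%, 91% and 90% of effects of 2. The simulation drew noise for each gene on its own and changed only genes averaging 5 TPM or more. Genes of the real tumors vary together, so these shares may not hold for them. The members and lists were chosen with earlier results of these data known. Named were the 10 highest and 10 lowest rho among genes averaging 5 TPM or more (skipping unnamed gene models, pseudogenes, receptor segments, Y-linked genes and Xist), the 5 highest and 5 lowest called resistant slopes, up to 3 called slope differences in each direction, up to 4 members of largest rho per list, and a fixed set of immune and reference genes. The 39 lists held cell type, process and quality genes; some listed genes are not analysed here. Alternatives were other filters, pseudocounts, scalings, a leukocyte score in place of Ptprc, covariates and leaving out libraries. Dropping low-Tubb5 tumors from the fits and from the Tubb5 relation was chosen after seeing the data.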

Additional observations from a re-analysis of the deposited data

Results flagged for a closer look

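For 2 genes the slope on Ptprc differed between resistant and parental tumors at an adjusted p under 0.05 in a limma fit over 25 tumors. The parental values in that fit are those of the ranking, so the differences are a description and not independent evidence. For Slc15a3 the difference was -1.91, and it passed under 26 of 34 alternatives. For Dhcr7 it was -1.18, and it passed under 12 of 34. Neither passed without the 4 parental tumors of low Tubb5 or without resistant replicate 7, the resistant tumor with the highest Ptprc.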

How the results depend on the processing

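Numbers of genes at a parental rho of at least 0.7 (813) and at most -0.7 (556) became 200 and 47 with the leukocyte score in place of Ptprc, 344 and 160 given Tubb5, 232 and 45 given the GC index, 250 and 73 given the mitochondrially encoded share, and 395 and 157 without the 4 low-Tubb5 tumors. A filter at 5 TPM gave 541 positive genes of 8247 in place of 10621, quantile normalization 476 positive, and median-of-ratios scaling 916 negative. Leaving out each parental tumor gave 597 (without replicate 7) to 1161 (without 11) positive and 358 (without 7) to 897 (without 11) negative genes; without replicate 2 there were 368 negative. In the resistant tumors, 6 positive and 5 negative slopes became 0 and 0 with no filter, with the leukocyte score and without the 2 low-Tubb5 tumors, 98 and 161 with median-of-ratios scaling, 6 and 8 with quantile normalization, 3 and 0 with Tubb5 as a covariate, and 1 and 0 with the GC index. Leaving out each resistant tumor gave 0 (without replicates 1, 4, 10 or 12) to 277 positive (without 6) and 0 to 468 negative genes (without 8; 0 without each of the others but 3, 6 and 11). Slope differences, 0 higher and 2 lower, became 3 and 27 with Tubb5 as a covariate and 2 and 22 with the GC index; lower genes were 0 with no filter, with the leukocyte score and without the 4 tumors, and 1 with either scaling. Leaving out each tumor gave 0 to 23 higher and 0 to 169 lower genes, the highest of both without parental replicate 3. Against culture, 859 lower genes became 1479 with quantile normalization, where 1547 were higher, and 1419 without the 4 tumors; leaving out each library gave 1060 (without culture 1) to 2563 higher and 249 (without culture 2) to 1039 lower genes (both highest without parental tumor 2). Spearman's correlation of Tubb5 with the GC index was -0.53 without the 2 farthest tumors and -0.13 without the 4. Of the genes named, the slope of Zbtb7c reversed to 0.018 with the leukocyte score; no named parental rho of 0.7 or more in size changed sign, while 552 of the values moved by more than their jackknife standard error and 1632 did not. The cause of these changes was not tested. No paired analysis was possible because the labels carry no shared replicate numbers.

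Depth is unknown, each tumor gave 1 library, and the 4 tumors lowest in Ptprc are those with low Tubb5, so the low end of the order has no library of ordinary composition.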
